A study of Rattus norvegicus and Homo sapiens with 12 samples.

Results

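The levels of 10 genes that mark or control the epithelial and mesenchymal states were compared in DU145, a human prostate cancer cell line grown from a brain metastasis. Of these, 6 are epithelial (CDH1, EPCAM, ELF3, GRHL2, ESRP1 and ESRP2) and 4 are mesenchymal (CDH2, VIM, ZEB1 and SNAI2). They are 10 of the 60107 genes in the count table, and 8 of them had enough counts to be among the 14316 genes tested. The genes were chosen by their difference in counts between F2 and F0 in these same 6 DU145 libraries, so their differences, and any mention of which side of the threshold they fell on, are a description only, and no other statement is supported by them. The question is whether lower epithelial genes came with higher mesenchymal ones.

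The study compared parental cells (F0) with cells recovered after exposure to conditioned medium of bone marrow mesenchymal stem cells (MSC CM), called F2. F0 DU145 and F2 DU145 were each measured in 3 samples by RNA QuantSeq, which counts fragments from the 3′ ends of polyadenylated transcripts, and 6 further samples of the series come from PAIII, a rat line not analysed here. Both DU145 populations were grown in DMEM with 10% FBS, and the human MSCs of the study were bought from Lonza. The paper does not say whether human or mouse MSCs gave the medium that selected F2 DU145. Exposures lasted 72 h, with 2 rounds by the sample labels and 3 by the series description. Whether the 3 F2 samples are separate selections or samples of 1 recovered line is not stated, so p-values describe the spread between these samples only. The 6 DU145 libraries held 15879480 to 16479239 gene counts, and 3 counts, the floor used here, correspond to 0.177 to 0.195 CPM (counts scaled to a common library size). Reads outside genes made up 9.60 to 10.0% in F0 and 11.3 to 11.9% in F2, and the part of this in the results below was not tested.

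In the epithelial-to-mesenchymal transition (EMT), cells lose junctions built on E-cadherin, the product of CDH1, and gain a motile, vimentin-rich phenotype. Proteins of the ZEB and SNAI families bind the CDH1 promoter and repress it, while the miR-200 microRNAs repress ZEB1 and are themselves repressed by it. GRHL2 and ELF3 are epithelial transcription factors, and ESRP1 and ESRP2 are RNA-binding proteins that set epithelial exon choice in transcripts such as CD44, CTNND1 and FGFR2. Counts at 3′ ends do not report exon choice, and they do not measure mature microRNAs or proteins.

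The libraries carried the markers of a carcinoma line of simple epithelial type. The 4 simple keratins (KRT7, KRT8, KRT18, KRT19) summed to 1592 to 1650 CPM in F0 and 1787 to 1816 CPM in F2. The prostate luminal markers KLK2, FOLH1, ACPP and HOXB13 were at 0 in all 6 libraries. Of 16 markers of MSCs and fibroblasts, LUM, THY1, CXCL12, VCAM1, POSTN, SPARC and FAP were at 0 in all 6 libraries, 3 could be tested and 0 passed the test. The sum of that list, mostly MCAM, was 18.2 to 39.4 CPM in F0 and 24.0 to 35.7 CPM in F2, so the ranges overlapped.

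CDH1, ELF3 and ESRP1 were lower in F2 DU145, while EPCAM and ESRP2 were slightly higher, and neither VIM nor ZEB1 was higher in F2 beyond the spread between libraries. SNAI2 was also lower in F2, and GRHL2 and CDH2 had 0 counts throughout. Among the 8 tested genes, 4 were past the threshold as lower and 1 as higher at an adjusted p under 0.05 in the fit over all genes. Across all tested genes 18.2% were past that threshold, 8.67% as lower (1241 genes) and 9.49% as higher (1358 genes). Of the 8 genes, 6 did not overlap between the populations, against 34% of all tested genes (17.1% with F2 lower, 16.9% with F2 higher). When the libraries were scaled by their size alone, 2805 genes were lower and 832 higher. The genes were chosen for this contrast, so nothing is read from the difference between those shares.

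**Figure D1:**
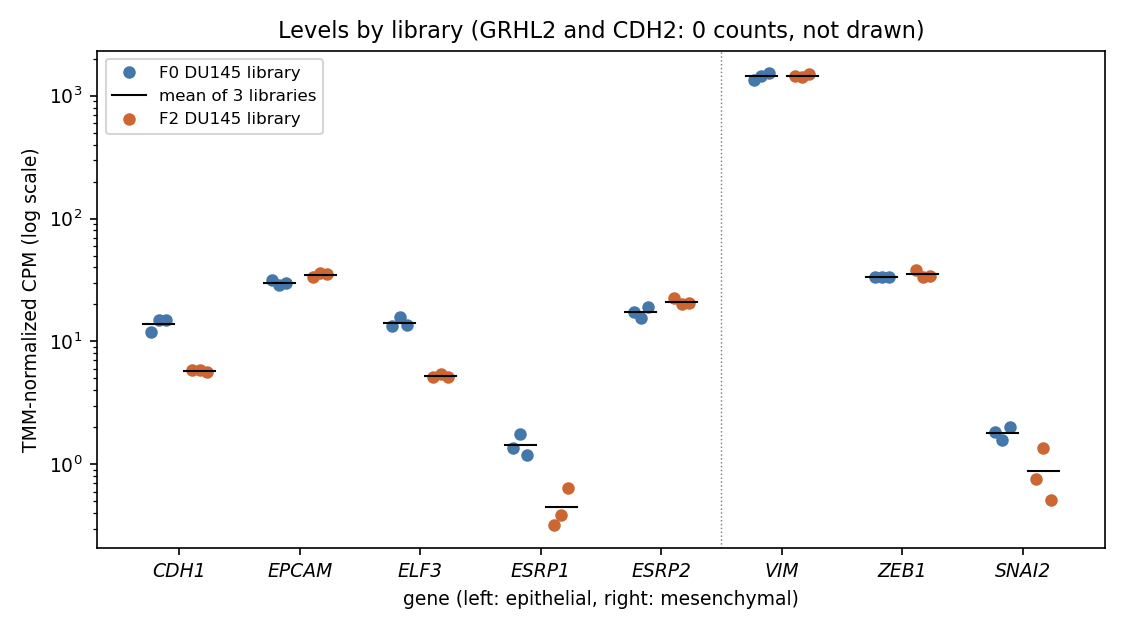
Level of each gene in each library, as TMM-normalized CPM on a log axis, with F0 in blue, F2 in orange and black lines for the mean of 3 libraries. CDH1, ELF3, ESRP1 and SNAI2 lie lower in all F2 than in all F0 libraries, EPCAM and ESRP2 slightly higher, and VIM and ZEB1 overlap. Over all tested genes, 34% did not overlap between the populations.

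CDH1 (ENSG00000039068, GRCh38 chr16:68737225-68835548, + strand) encodes E-cadherin, the transmembrane protein of adherens junctions. F0 libraries held 202, 249 and 253 CDH1 counts, F2 libraries 91, 90 and 89. All 3 F2 libraries lay close together and far under the lowest F0 library. Its level was 5.77 ± 0.0914 CPM in F2 against 14.0 ± 1.79 CPM in F0 (mean ± SD, n = 3 per population, as for all values below), 2.42-fold lower, a log2 fold change of −1.27 (SE 0.13). In RNA from whole cultures, fewer cells that express a gene and less RNA of it per cell cannot be told apart.

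EPCAM (ENSG00000119888, chr2:47345158-47387601, + strand), an adhesion molecule carried by most carcinoma cells, went the other way. It had 540, 475 and 504 counts in F0 and 528, 551 and 557 in F2. After scaling the populations did not overlap, with 28.7 to 31.8 CPM in F0 and 33.7 to 35.7 CPM in F2, but the gap was small. The log2 fold change was 0.22 (SE 0.072), and with the libraries scaled by size alone it was 0.13. In F2 there were 6.06 ± 0.234 EPCAM counts per CDH1 count, against 2.19 ± 0.420 in F0.

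N-cadherin, encoded by CDH2 (ENSG00000170558, chr18:27950966-28177446, − strand), is the cadherin that often replaces E-cadherin in EMT. It had 0 counts in all 6 libraries, which allows a level of up to 0.177 to 0.195 CPM in a library. A switch from CDH1 to CDH2 was thus not detectable at this depth. Of the classical cadherins CDH1, CDH2 and CDH3, the most counts were of CDH3, for P-cadherin, with 88.6, 80.2 and 83.5 CPM in F0 and 57.8, 53.2 and 60.2 CPM in F2. CDH3 fell (log2 fold change −0.56, SE 0.061, adjusted p = 1.8e-06, edgeR), yet by less than CDH1, so CDH3 counts per CDH1 count were 6.12 ± 1.15 in F0 and 9.89 ± 0.755 in F2.

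ELF3 (ENSG00000163435, chr1:202007945-202017188, + strand) encodes an ETS factor of epithelial cells. Its counts were 227, 259 and 231 in F0 and 80, 84 and 80 in F2. As with CDH1, the F2 libraries were nearly alike and lay well apart from F0. The level was 14.2 ± 1.25 CPM in F0 and 5.22 ± 0.200 CPM in F2, 2.73-fold lower, a log2 fold change of −1.45 (SE 0.12). The antisense transcript ELF3-AS1, which overlaps the start of ELF3, also fell, from 1.65 to 0.534 CPM (log2 fold change −1.61, SE 0.35, adjusted p = 0.0028, edgeR), and it passed the filter on low counts through F0. How strand was handled in counting is not given in the sources used here, so reads of these partners may not be separate.

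GRHL2 (ENSG00000083307, chr8:101492432-101669726, + strand), a grainyhead factor that activates CDH1 in epithelia, had 0 counts in all 6 libraries. The limit on its level is the same as for CDH2. Thus the 3′ counts gave no detectable GRHL2 in F0 DU145 either, where CDH1 was measured at its higher level.

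ESRP1 (ENSG00000104413, chr8:94641074-94707466, + strand) is 1 of the 2 epithelial splicing regulatory proteins, and it was the rarer by far. It had 23, 29 and 20 counts in F0 and 5, 6 and 10 in F2. Populations did not overlap, but the counts are few. ESRP1 passed the filter on low counts only through F0, where it is higher, as its F2 counts were too few by themselves. The level was 1.43 ± 0.293 CPM in F0 and 0.448 ± 0.167 CPM in F2, a log2 fold change of −1.65 (SE 0.38).

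ESRP2 (ENSG00000103067, chr16:68229111-68238102, − strand), its paralog, had 295, 258 and 320 counts in F0 and 352, 308 and 321 in F2. The ranges touch in raw counts and separate after scaling, with 15.6 to 18.9 CPM in F0 and 20.0 to 22.5 CPM in F2. The log2 fold change was 0.28 (SE 0.095), not past the threshold. The share of ESRP1 in the ESRP1 and ESRP2 counts was 7.23, 10.1 and 5.88% in F0 and 1.40, 1.91 and 3.02% in F2. Most ESRP counts in both populations were therefore of ESRP2. The 3′ end of ESRP2 overlaps that of NFATC3 on the other strand, which fell (log2 fold change −0.35, adjusted p = 0.0087, edgeR), so the level of ESRP2 is uncertain.

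**Figure D2:**
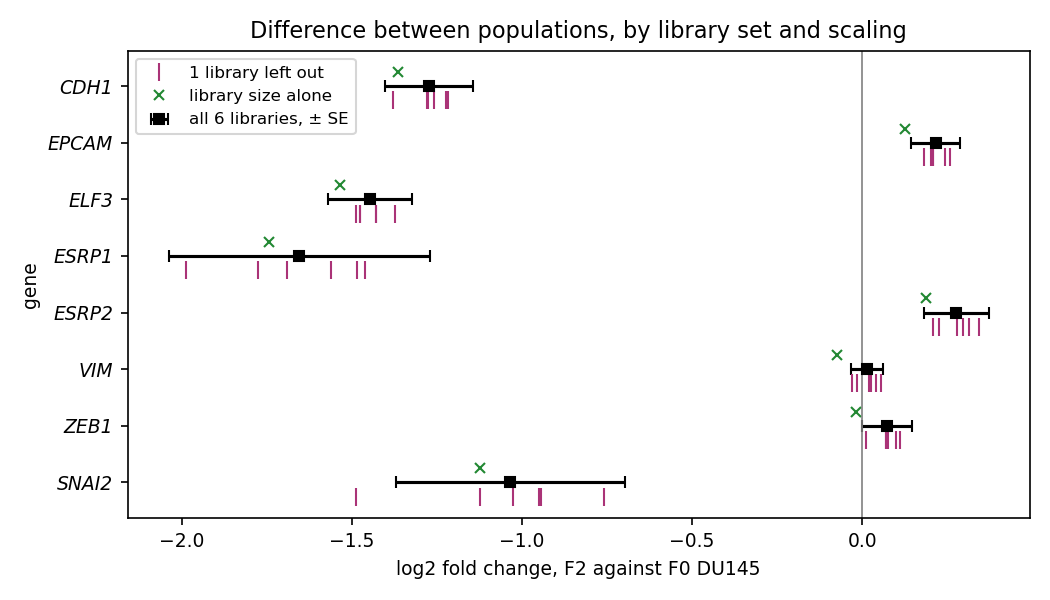
Log2 fold change of F2 against F0 for each gene, with black squares and bars for the estimate and its SE, purple ticks for the estimates with 1 library left out and green crosses for scaling by library size alone. The estimates of CDH1, ELF3, ESRP1 and SNAI2 lie under 0 and those of EPCAM and ESRP2 over 0, whereas those of VIM lie on both sides of 0, those of ZEB1 just over it, and both are under 0 with library size alone (−0.075 and −0.018).

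On the mesenchymal side, VIM (ENSG00000026025, chr10:17228259-17237593, + strand) encodes vimentin, the intermediate filament protein of mesenchymal cells. It was abundant already in the parental cells, at 22796, 23926 and 25703 counts, and had 22477, 21691 and 23744 counts in F2. The levels, 1437 ± 87.8 CPM in F0 and 1451 ± 54.4 CPM in F2, overlapped, with a log2 fold change of 0.015 (SE 0.047). VIM counts per CDH1 count were 104 ± 8.54 in F0 and 252 ± 13.5 in F2, a difference that comes from the CDH1 term of the ratio.

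ZEB1 (ENSG00000148516, chr10:31318495-31529814, + strand) encodes the zinc-finger repressor of CDH1. It had 569, 551 and 565 counts in F0 and 598, 513 and 533 in F2. In CPM, 1 F2 library stood higher (38.2) and the other two (33.3 and 33.9) lay at the F0 level of 33.4 ± 0.117, and the log2 fold change was 0.072 (SE 0.073). The antisense transcript ZEB1-AS1, which overlaps the start of ZEB1, rose from 1.21 to 2.16 CPM (log2 fold change 0.83, SE 0.27, adjusted p = 0.038, edgeR), again with the strand of counting not given.

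ZEB1 is a textbook target of the miR-200 family, so its sites are shown with the microRNAs. The mature sequences come from the rat RefSeq table (GRCr8), and each was found whole in the human hairpin of the GENCODE annotation (MIR200C at chr12:6963699-6963766 and MIR141 at chr12:6964097-6964191). Capitals mark the seed, bases 2 to 8.
miR-200c-3p: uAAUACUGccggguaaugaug
miR-141-3p: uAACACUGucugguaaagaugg

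The 3′ UTR of ZEB1 (1938 bases, exon 9) held 5 copies of CAGTATT, the complement of the miR-200c seed, and 3 of CAGTGTT, that of the miR-141 seed, searched on the transcript strand. Of 5057 other genes with a 3′ UTR at least as long, 37% held CAGTATT and 0.0989% (5 genes) held it as often, and 40.7% held CAGTGTT and 3.28% held it as often. A match is a description and not a shown site. The 4 copies followed by an A are printed 5′ to 3′, with the match to the seed in capitals, as the part of ZEB1 mRNA that these microRNAs could pair with (+ strand).
chr10:31527622-31527650: ttttatcttatCAGTATTatcactcttat
chr10:31528496-31528524: tttttacctatCAGTATTattttatttct
chr10:31528566-31528594: ttcaaacctggCAGTATTaatacccttct
chr10:31528786-31528814: atttgatttaaCAGTGTTatgttaacatt

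MIR200CHG, the host transcript of both microRNAs, was scarce in both populations. It had 14, 13 and 10 counts in F0 and 8, 10 and 17 in F2, with a log2 fold change of 0.027 (SE 0.40, adjusted p = 0.97, edgeR). The wide error does not settle whether it differed. MIR205HG, host of miR-205, which also targets ZEB1, had 0 counts in all 6 libraries.

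SNAI2 (ENSG00000019549, chr8:48917604-48921740, − strand) encodes SLUG, another repressor of CDH1. It had 31, 26 and 34 counts in F0 and 12, 21 and 8 in F2. The F2 libraries were lower but spread widely, and SNAI2, like ESRP1, owed its place in the test to the F0 libraries. The level was 1.80 ± 0.219 CPM in F0 and 0.879 ± 0.437 CPM in F2, a log2 fold change of −1.03 (SE 0.34), thus in the same direction as CDH1. SNAI1, which encodes the related repressor SNAIL, was at 3.20 ± 0.659 and 4.04 ± 0.502 CPM (log2 fold change 0.34, adjusted p = 0.26, edgeR), so SNAI2 counts per SNAI1 count were 0.585 ± 0.161 in F0 and 0.212 ± 0.0823 in F2.

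With each library left out in turn, EPCAM was past the threshold in 1 of 6 fits, SNAI2 in 1 and ESRP2, which was not past it with all libraries, in 2.

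Since QuantSeq counts about 1 fragment per transcript, CPM can be set side by side between genes without dividing by length. In F0 the order was VIM, ZEB1, EPCAM, ESRP2, ELF3, CDH1, SNAI2 and ESRP1. ESRP2 and ELF3, ELF3 and CDH1, and SNAI2 and ESRP1 overlapped in their ranges over libraries. VIM lay at percentile 99.5 of the tested genes in F0, CDH1 at 45.9 and ELF3 at 46.3. In F2 the order was VIM, ZEB1, EPCAM, ESRP2, CDH1, ELF3, SNAI2 and ESRP1, with overlap between ZEB1 and EPCAM and between SNAI2 and ESRP1. ZEB1 counts per CDH1 count were 2.42 ± 0.343 in F0 and 6.09 ± 0.444 in F2. ZEB1 and VIM thus exceeded CDH1 in every library of both populations.

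Over the 6 libraries, log2 CPM of CDH1 correlated with ELF3 at r = 0.99, with ESRP1 at r = 0.93, with SNAI2 at r = 0.82, with ESRP2 at r = −0.82 and with VIM at r = 0.00027. These points form 3 libraries of each population, so the values mostly restate the difference between populations. Among 8649 genes with a mean of at least 10 CPM, the patterns most like CDH1 were those of SRI, NIPSNAP2 and CCNI (r = 0.997 each, 6 libraries). For ELF3 they were EEF1A1, NUAK2 and ID2, and for ESRP1 they were BRWD1, ZNF219 and EFCAB11. All 9 were lower in F2, by 0.20 (CCNI) to 0.93 (ID2) on the log2 scale.

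Of 17 epithelial factors and microRNA hosts beside ELF3 and GRHL2, 11 were tested, 0 rose and 1 fell (9.09% called, against 18.2% of all tested genes), and the median log2 fold change was −0.075, against −0.0025 over all tested genes. The gene that fell was TFAP2C, an AP-2 factor of epithelial and germ cells, with 1114, 1021 and 1043 counts in F0 and 533, 615 and 598 in F2 (log2 fold change −0.76, SE 0.067, adjusted p = 1.5e-07, edgeR). OVOL1 and OVOL2, repressors of ZEB1, were at or near the floor, OVOL1 with at most 2 counts in a library and OVOL2 at 0.556 and 0.365 CPM (log2 fold change −0.60, SE 0.55, adjusted p = 0.50).

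EMT transcription factors beside ZEB1 and SNAI2 were mixed. Of 16, 9 were tested, 2 rose and 1 fell (33.3%, against 18.2% of all tested genes). The median log2 fold change was 0.093. HMGA2, a chromatin protein that promotes EMT, rose from 186, 189 and 183 counts to 325, 339 and 405 (log2 fold change 1.04, SE 0.10, adjusted p = 5.3e-07, edgeR). No F2 library came near the F0 range. HMGA2 was the gene of the list past both the threshold and 2-fold, as were 1.67% of all tested genes. SOX9 rose by less (log2 fold change 0.33, adjusted p = 0.0049, edgeR). TWIST1 had 0 counts in all 6 libraries and TWIST2 was level at 25.9 and 25.8 CPM (log2 fold change −0.0074, SE 0.081, adjusted p = 0.97). ZEB2 was too low to test, with 21, 9 and 8 counts in F0 and 6, 6 and 5 in F2.

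Genes of cell junctions moved in both directions. Of 10 tested adherens junction genes, 2 rose and 3 fell (50%, against 18.2% of all tested genes). The median log2 fold change was −0.076. NECTIN1, a nectin adhesion receptor, rose (0.53, adjusted p = 2.2e-06, edgeR) and so did AFDN, the nectin-binding scaffold afadin (0.17, adjusted p = 0.031), whose call held in 2 of 6 fits with a library left out. Besides CDH3, NECTIN2 fell (−0.36, adjusted p = 0.00093), as did CTNND1, the E-cadherin partner p120-catenin (−0.25, adjusted p = 0.0010), named after its value was seen.

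Of 16 tested tight junction and polarity genes, 2 rose and 5 fell (43.8%, against 18.2% of all tested genes). The median log2 fold change was −0.18. The claudin gene CLDN12 rose (log2 fold change 0.34, SE 0.090, adjusted p = 0.013, edgeR), a call that was lost when the libraries were scaled by size alone. Another claudin gene, CLDN7 (−0.57, adjusted p = 0.0051) and the polarity gene LLGL2 (−0.50, adjusted p = 0.00074) fell. The other genes that fell, named after their values were seen, were PARD6B, TJP1 and CLDN3, by 0.28 to 0.43 on the log2 scale.

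Of 9 tested desmosome genes, 2 rose and 0 fell (22.2%, against 18.2% of all tested genes). The median log2 fold change was 0.14. The genes that rose were DSP, for desmoplakin (0.22, adjusted p = 0.014, edgeR), and DSG2, a desmosomal cadherin (0.14, adjusted p = 0.044). Neither passed when the libraries were scaled by size alone, and their calls held in 2 and 1 of 6 fits with a library left out. Of all 35 tested junction genes, 6 rose and 8 fell (40%, against 18.2% of all tested genes).

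**Figure D3:**
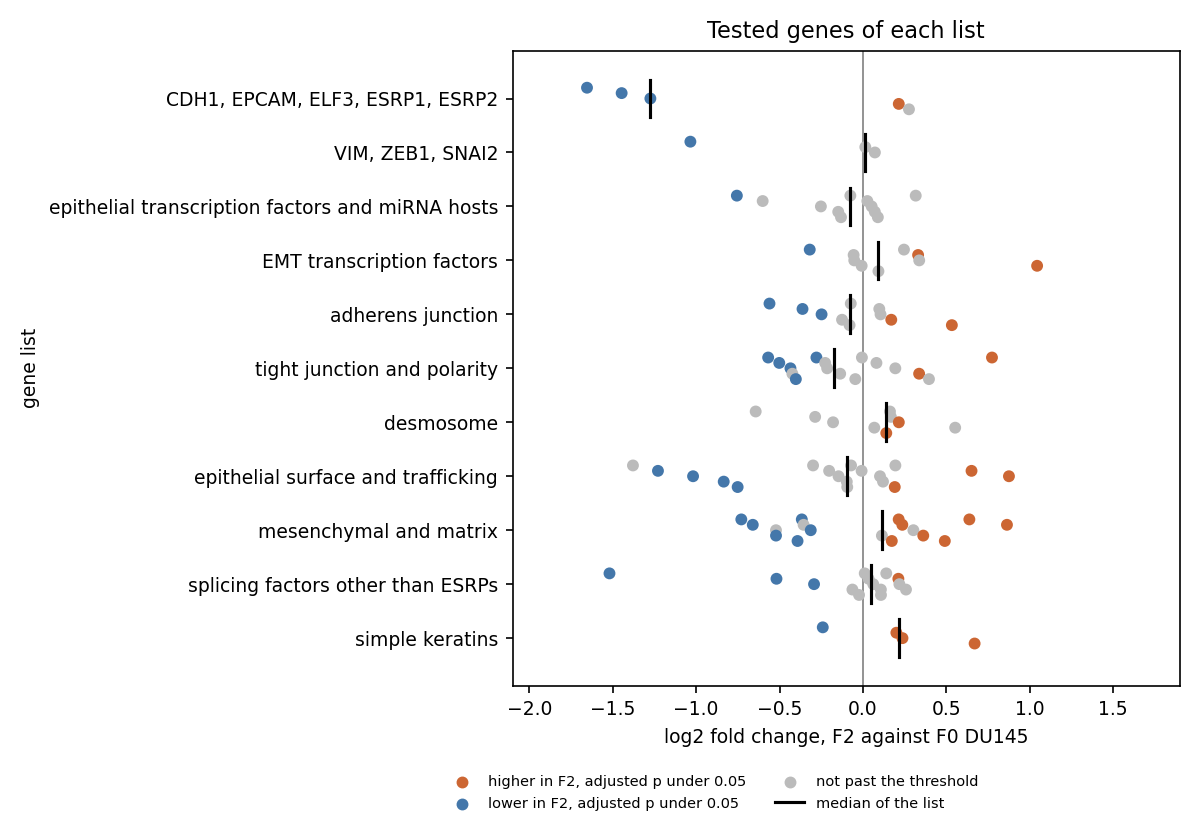
Log2 fold change of F2 against F0 for every tested gene of each list (points; orange and blue are past an adjusted p of 0.05 in the edgeR fit over all genes, grey are not), with a black line for the median of the list. Calls lie on both sides of 0 in the lists of EMT factors, adherens and tight junctions, epithelial surface, mesenchymal and matrix genes, splicing factors and keratins.

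Among surface and trafficking genes of epithelia, 18 were tested, 3 rose and 4 fell (38.9%, against 18.2% of all tested genes). The median log2 fold change was −0.095. C1orf116 rose from 4.23 to 7.76 CPM (log2 fold change 0.88, adjusted p = 0.00021, edgeR), and CD24, a glycosylated surface antigen, rose from 50.3 to 78.9 CPM (0.65, adjusted p = 9.4e-08). SCNN1A, a subunit of the epithelial sodium channel (−1.23, SE 0.40, adjusted p = 0.040), and LAD1, for the anchoring filament protein ladinin (−1.02, SE 0.35, adjusted p = 0.047), fell more than 2-fold, both from under 2 CPM, and each call held in 1 of 6 fits with a library left out. The F2 counts of both genes were too few to pass the filter on low counts by themselves. Both were tested through the F0 libraries, where they are higher, so their calls are a description only. The others past the threshold, named after their values were seen, were MUC1 (−0.83) and ST14 (−0.75), which fell, and LSR (0.19), which rose.

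Mesenchymal and matrix genes beside VIM and CDH2 likewise had no common direction. Of 30, 17 were tested, 7 rose and 6 fell (76.5%, against 18.2% of all tested genes). The median log2 fold change was 0.11. CD44, the hyaluronan receptor, rose from 143 ± 7.76 to 222 ± 4.49 CPM (log2 fold change 0.64, SE 0.049, adjusted p = 1.7e-08, edgeR), and DDR2, a collagen receptor, rose from 1.49 to 2.71 CPM (0.86, adjusted p = 0.016). CALD1, for the actin-binding caldesmon (−0.73, adjusted p = 7.7e-07), and S100A4 (−0.66, adjusted p = 0.00016), a calcium-binding protein linked to cell motility, fell. Of the 30, 6 had 0 counts in all libraries, and without F2 replicate 1 the list had 7 calls in place of 13.

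Taking the lists by type and leaving out the 10 genes themselves, 9 genes rose and 13 fell of 64 tested in the epithelial lists (junctions, surface and factors, without keratins), and 9 rose and 7 fell of 26 tested in the mesenchymal lists (EMT factors and matrix genes). These are 34.4% and 61.5% of the tested genes of each type, against 18.2% of all tested genes (9.49% higher, 8.67% lower). The 13 falls include SCNN1A and LAD1, which were tested through F0, and the lists were chosen with earlier results known. Nothing is therefore read from the difference between these shares. The medians were −0.078 and 0.10 on the log2 scale. The median absolute log2 fold change over all tested genes was 0.15.

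The simple keratins were higher in F2 except for KRT7. KRT19 rose from 254 ± 15.8 to 405 ± 13.4 CPM (log2 fold change 0.67, SE 0.049, adjusted p = 8.9e-09, edgeR), and KRT8 (0.24, adjusted p = 0.019) and KRT18 (0.20, adjusted p = 0.0026) rose by less. KRT7 fell (−0.24, adjusted p = 0.00031). With library size alone, 2 of the 4 were past the threshold, and the call of KRT8 held in 3 of 6 fits with a library left out.

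Of 14 tested splicing factors beside the ESRPs, 1 rose and 3 fell (28.6%, against 18.2% of all tested genes). MBNL1, a muscleblind protein, rose (0.21, adjusted p = 0.0011, edgeR), while its paralog MBNL2 fell (−0.52, adjusted p = 0.00030). KHDRBS3, for the STAR-family protein SLM2, fell from 0.871 to 0.299 CPM (−1.52, SE 0.47, adjusted p = 0.029), a call that held in 2 of 6 fits with a library left out. Like SCNN1A, it passed the filter through F0 alone. QKI, named after its value was seen, fell (−0.29). Of the transcripts whose exons the ESRPs are known to set, CD44 was thus higher and CTNND1 lower in total 3′ counts, with no reading of their isoforms.

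CDH1 and CDH3 are neighbours on chromosome 16, 14609 bases apart. Of 16 tested genes within 500000 bases of CDH1, 1 rose and 1 fell, CDH3 being the latter. The one that rose was HAS3, a hyaluronan synthase gene 270016 bases away, from 20.3 to 29.3 CPM (log2 fold change 0.53, adjusted p = 0.00076, edgeR). TANGO6, on the other side of CDH1 at 8056 bases, was level (−0.016, SE 0.10, adjusted p = 0.94). ESRP2 lies in the same window, 499123 bases from CDH1, with its small difference in the other direction. The window was chosen after values were seen. Of 633 tested genes of chromosome 16, 47 rose and 43 fell (14.2%, against 18.2% of all tested genes). The median log2 fold change of that chromosome was −0.021. Around ELF3, 2 of 15 tested neighbours rose and 2 fell, against 9.49% and 8.67% of all tested genes. The falls include ELF3-AS1, which overlaps ELF3, was tested through F0 and may share its reads.

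**Figure D4:**
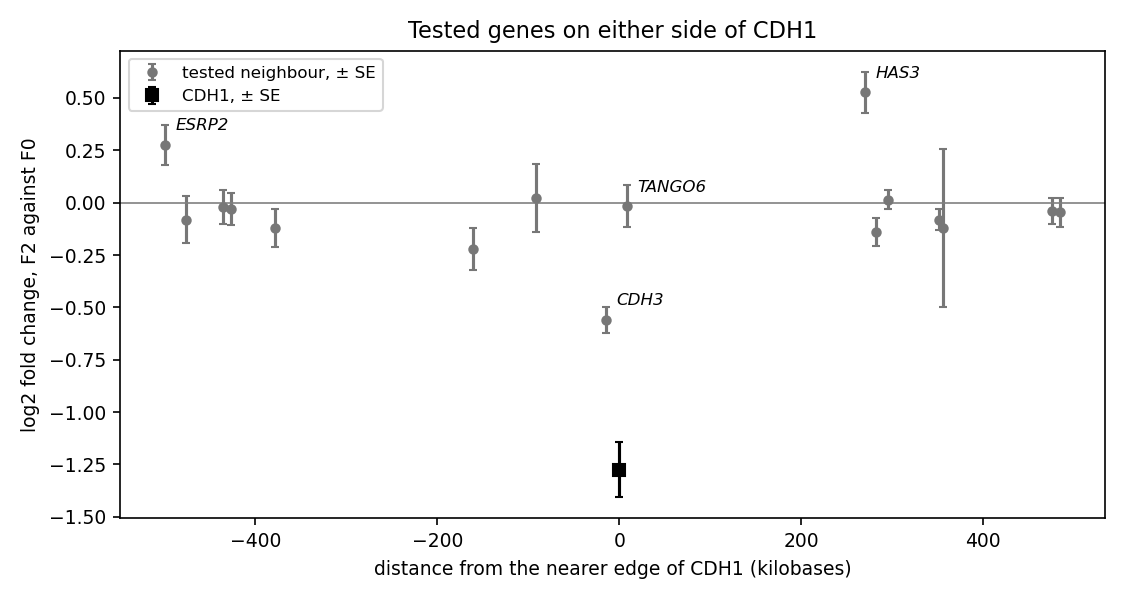
Log2 fold change of F2 against F0 (points with SE bars) for CDH1 and the tested genes around it, by distance from the nearer edge of CDH1 in kilobases. CDH3 (−0.56) and HAS3 (0.53) stand away from the other neighbours, and CDH1 (−1.27) lies under all of them.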

How the data were processed

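RNA of F0 and F2 DU145 (3 samples each) was profiled by QuantSeq. Per the submitters' processing notes, reads were aligned with STAR 2.5.2a to GRCh38 and counted with HTSeq 0.6.0; the authors deposited raw counts per gene, without normalization. The annotation and the strand setting behind the counts are not given in the sources used here, and the kit's PCR duplicates stay in the counts. The table of the rat line was not used.

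Columns were matched to samples by line, population and replicate. Of 60107 identifiers, 56104 matched a symbol, and positions are from GENCODE release 29 (56531 matched). Reads outside genes (9.60 to 11.9%) and ambiguous reads (1.36 to 1.50%) were left out, and 92 spike-in lines were left out too.

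Tests used R 4.3.3 with edgeR 4.0.16 and limma 3.58.1: filterByExpr (minimum count 10, total 15), TMM scaling and the two-sided quasi-likelihood F-test of F2 against F0, with Benjamini-Hochberg adjustment over 14316 genes and a threshold of 0.05. Log2 fold changes are from that fit. CPM are TMM-normalized, and the floor covers counting error only. SD and SE values include the spread between libraries. The replicates differed by 2.20 to 5.95 times the sampling variance (chi-square per degree of freedom), which is more than sampling alone gives. This cannot tell separate cultures from repeated libraries of the same culture.

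The 10 genes, the lists and the rules for named genes were chosen with earlier results of these data known. Named were the 10 genes, up to 2 largest rises and falls past the threshold per list and every called list gene past 2-fold. Also named were SNAI1, ZEB2, TWIST1, TWIST2, OVOL1, OVOL2, MIR200CHG and MIR205HG, and the 3 genes most correlated with CDH1, ESRP1 and ELF3. Alternatives were median-ratio size factors, library size alone, no filter beyond 1 count, at least 10 counts in every library, DESeq2 1.42.0, a replicate block and each library left out. The method was tested on simulated data. A search of promoters was planned and not run, as human promoters were not used here. Some genes of the lists that the rule would name are counted but not reported by name here.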

Additional observations from a re-analysis of the deposited data

How the results depend on the processing

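Of 615 values recomputed under the alternatives, 526 kept their side of the threshold (or, for counts of genes, stayed within 1.5 times). A further 60 were weaker, 5 stronger, 24 moved and 0 reversed. A change of sign was counted as reversed only where either fit was past the threshold. Values not past it in either fit could thus change sign among the 526, as VIM (−0.075) and ZEB1 (−0.018) did with library size alone. The cause of these changes was not tested. ESRP1 and SNAI2 could not be fitted with at least 10 counts in every library, since their F2 counts are too few, and SNAI2 had a log2 fold change of −1.04 with DESeq2, no longer past the threshold. EPCAM was no longer past the threshold with library size alone (0.13), without the filter (0.22) and with DESeq2 (0.21). ESRP2 passed it at 0.28 with median-ratio size factors, without the filter and with the replicate block. Library size alone moved the median of all genes by −0.090 on the log2 scale.

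Genes past the threshold numbered 1671 without F0 replicate 2, against 2599 with all libraries, 1898 with DESeq2 and 3637 with library size alone. With library size alone there were 3 calls among epithelial transcription factors, 1 in desmosome genes (a fall) and 2 in keratins. Desmosome genes had 1 call without the filter and 1 with DESeq2, epithelial surface genes had 4 with DESeq2, and the mesenchymal genes VIM, ZEB1 and SNAI2 had 0 with DESeq2 and 0 with at least 10 counts in every library.

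With each library left out in turn, all genes past the threshold ranged from 1671 to 2621, the epithelial genes of the report from 3 to 4, the mesenchymal ones from 0 to 1, epithelial transcription factors from 1 to 2, desmosome genes from 0 to 2, epithelial surface genes from 4 to 7, and mesenchymal and matrix genes from 7 to 12. Log2 fold changes ranged from 0.18 to 0.26 for EPCAM, from 0.21 to 0.34 for ESRP2 and from −1.49 to −0.76 for SNAI2.

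Whether the replicate numbers pair the samples was not settled. Deviations of same-numbered F0 and F2 samples correlated at 0.17, −0.040 and 0.17 (8649 genes). Those of differently numbered samples correlated at −0.21 to 0.068, lowest for F0 replicate 1 with F2 replicate 3. With the replicate block 2867 genes were past the threshold. Low counts limit the precision for ESRP1, SNAI2, SCNN1A, LAD1, KHDRBS3, OVOL2, ZEB2 and MIR200CHG, among others.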
